A study of Mus musculus with 4 samples.

Results

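The Zscan4 family is a cluster of near-identical zinc finger genes on mouse chromosome 7. Its 5 members described here, Zscan4b, Zscan4c, Zscan4d, Zscan4e and Zscan4f, are the genes of those names among the 37310 of the expression table. They were chosen by name, with their higher normalized values in Bmal1-/- than in wild-type mouse embryonic stem cells (mESCs) already known, so the difference between these groups is given for them as a description, without a test. A further annotated copy, Zscan4-ps2, is no member and is shown beside them. mRNA was sequenced from JM8 mESCs, a feeder-free line of the C57BL6/N strain, in 2 libraries labelled JM8 wild-type and 2 labelled Bmal1-/-. All 4 cultures grew in 2i + LIF, a serum-free medium with the MEK inhibitor PD0325901 (1 µM), the GSK3 inhibitor CHIR99021 (3 µM) and the cytokine LIF, on gelatin. The Bmal1-/- cells are a clonal line with CRISPR/Cas9 indels in both alleles of Bmal1 (Arntl), which encodes the clock transcription factor that pairs with Clock. Each label stands for 1 line, so a difference between the genotypes and a difference between the lines cannot be told apart, and p-values measure only the spread between the 4 libraries.

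Zscan4 proteins carry a SCAN domain, through which such factors bind each other, and C2H2 zinc fingers, which bind DNA. In the mouse embryo the genes are transcribed around the 2-cell stage, when the zygotic genome is switched on. In mESC cultures they are known for being active in a small and changing fraction of cells, the 2-cell-like cells, together with other genes of the early embryo such as those of the Usp17l, Tdpoz, Trim43 and Prame families, and they have been linked to telomere lengthening by recombination. Because the libraries were made from whole cultures, more cells with Zscan4 RNA and more RNA per cell cannot be told apart.

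The copies lie within one stretch of chromosome 7 of the mm9 genome and are annotated as protein coding. Zscan4b is at chr7:11486098-11490399 on the minus strand and Zscan4c at chr7:11591071-11595896 on the plus strand. Zscan4d is at chr7:11746992-11751497 and Zscan4e at chr7:11891727-11896031, both on the minus strand. Zscan4f is at chr7:11983264-11988090 and Zscan4-ps2 at chr7:12099659-12104460, both on the plus strand. Coding sequences are 1518 bases long in Zscan4b and Zscan4e and 1521 bases in the other copies. Of 1521 columns in the alignment of the 6 coding sequences, 67 varied and 95.6% were the same in every copy. The 75 coding bases where the copies differ most, coding bases 691 to 765, are shown because 75 bases is the length of a sequenced read and no other coding stretch of that length tells the copies apart at more positions. Capitals mark the 10 variable positions:
Zscan4b: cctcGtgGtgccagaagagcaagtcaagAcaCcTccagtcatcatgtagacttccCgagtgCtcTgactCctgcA
Zscan4c: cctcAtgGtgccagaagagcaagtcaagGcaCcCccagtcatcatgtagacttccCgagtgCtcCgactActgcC
Zscan4d: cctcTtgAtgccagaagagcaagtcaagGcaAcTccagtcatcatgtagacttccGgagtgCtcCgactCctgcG
Zscan4e: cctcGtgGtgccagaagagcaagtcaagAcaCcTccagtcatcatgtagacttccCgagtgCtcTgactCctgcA
Zscan4f: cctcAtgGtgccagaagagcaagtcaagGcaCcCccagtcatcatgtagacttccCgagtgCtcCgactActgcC
Zscan4-ps2: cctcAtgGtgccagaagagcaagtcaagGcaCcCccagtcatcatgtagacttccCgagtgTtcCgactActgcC
Even here Zscan4b and Zscan4e had the same letters, as had Zscan4c and Zscan4f, and Zscan4-ps2 differed from the latter pair at a single position. The longest stretch that all 6 copies share, coding bases 1407 to 1521 in Zscan4c, ends with the stop codon and gives reads that fit every copy:
all copies: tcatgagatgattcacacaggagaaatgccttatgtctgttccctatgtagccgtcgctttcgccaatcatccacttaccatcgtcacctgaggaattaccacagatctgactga

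Pairwise coding identity placed the copies in groups. Zscan4b and Zscan4e were 99.7% identical with 4 differing columns, and Zscan4f and Zscan4-ps2 were 99.7% identical, also with 4. Zscan4c and Zscan4f differed at 6 columns (99.6%). Zscan4d stood farthest from the others, at 96.4% to Zscan4b and at most 97.7% to any copy. The share of 75-base windows of the annotated exons that occur once on chromosome 7 was 60.9% for Zscan4d (1033 of 1696 windows), 23.3% for Zscan4c, 11.7% for Zscan4b, 8.83% for Zscan4e, 7.22% for Zscan4-ps2 and 3.74% for Zscan4f. For between 35.3% (Zscan4f) and 70.2% (Zscan4b) of a copy's windows, every match on chromosome 7 lay inside the 6 annotated genes, and the other windows also matched elsewhere on it. Windows were taken singly although reads were paired, so read pairs may be told apart better than these shares show. How reads that fit several copies were counted is not given in the sources used here. The value of a single copy is therefore uncertain, most for Zscan4f and least for Zscan4d, and the summed value of the family is given beside the single copies. The sum is uncertain too, since reads may also fit Zscan4-ps2 or places outside the 6 genes.

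**Figure D1:**
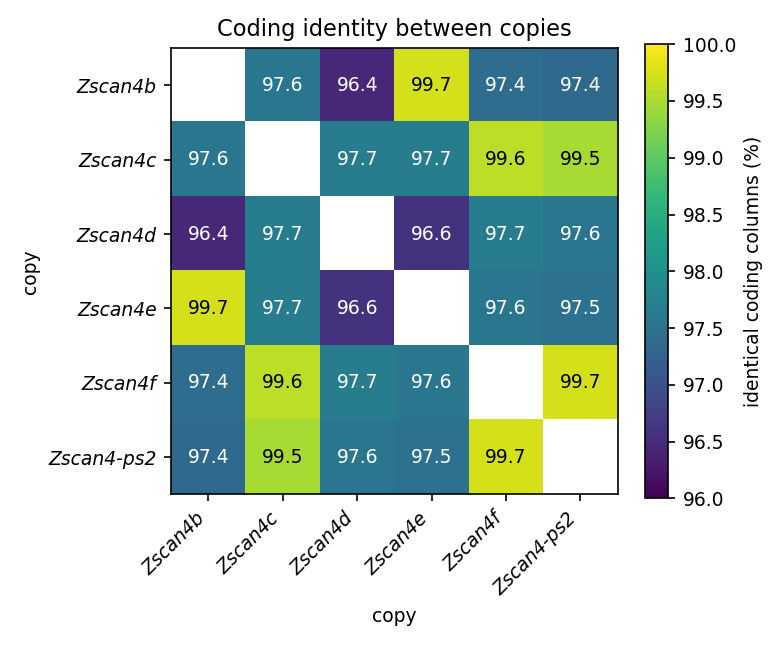
Percent of aligned coding columns that are identical between each pair of Zscan4 copies, with the copies on both axes and the percentage as colour and number. Zscan4b with Zscan4e, and Zscan4c, Zscan4f and Zscan4-ps2 with each other, lie at 99.5% to 99.7%, and all pairs with Zscan4d at 96.4% to 97.7%.

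The bases before the annotated starts were near-identical within the pairs of closest copies. The annotated starts of Zscan4d and Zscan4-ps2 lie further downstream, so their windows cover shifted stretches. In windows of 250 bases, Zscan4b and Zscan4e shared 99.6% and Zscan4c and Zscan4f 99.2%, against 94.8% to 95.2% between these pairs. Zscan4d shared 73.6% to 74.3% of aligned columns with these 4 copies and 87.7% with Zscan4-ps2, which itself shared 79.1% to 82.4% with the 4. Columns with a base in only 1 window were counted as differing. Zscan4c and Zscan4d, for example, filled 284 columns with windows of 250 bases. These lower shares therefore include the shift of the windows and do not measure how alike the overlapping bases are. A TATAAA motif, the core promoter element bound by TBP, was found in 6 of 6 windows, read on both strands, whereas 15.01% of the 37303 upstream windows of all genes held it. It lay 31 to 26 bases before the start in Zscan4b, Zscan4c, Zscan4e and Zscan4f, 65 to 60 bases in Zscan4d and 54 to 49 bases in Zscan4-ps2. The windows come from near-identical copies, so the 6 with TATAAA are not 6 separate cases. Nothing is read from that count. The last 150 bases are printed for 1 copy of each pair, with TATAAA in capitals, since they show how alike the upstream bases of these 2 copies on opposite strands are:
Zscan4c chr7:11590921-11591070 (plus strand): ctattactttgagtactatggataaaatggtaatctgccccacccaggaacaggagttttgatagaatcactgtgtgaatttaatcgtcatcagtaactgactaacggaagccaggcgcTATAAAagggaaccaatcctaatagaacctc
Zscan4e chr7:11896032-11896181 (minus strand): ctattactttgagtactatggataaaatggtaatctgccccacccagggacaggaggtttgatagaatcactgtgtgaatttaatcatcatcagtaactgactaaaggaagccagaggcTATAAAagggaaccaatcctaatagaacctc
The canonical E-box CACGTG, which Bmal1 and Clock bind, and the related CACGTT were in 0 of the 6 windows, as were the Dux motif and the Zscan4 motif TGCACAC. Over all genes these motifs were in 5.15%, 3.67%, 0.0268% and 3.95% of windows, so that absence from 6 short windows says only that these letters are not there.

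Every Zscan4 copy had a higher value in the libraries labelled Bmal1-/- than in those labelled wild-type. Summed over the 5 members, the normalized value (reads scaled by the authors with TMM, close to 1 read a unit) was 129 and 173 in wild-type replicates 1 and 2 and 2004 and 1921 in Bmal1-/- replicates 1 and 2. The groups lay far apart, and the wild-type libraries were the low ones. The means were 151 ± 31.6 and 1963 ± 58.2 (SD, n = 2), a ratio of 13.01 that ranged from 11.1 to 15.6 over the pairs of libraries, or 3.71 on the log2(value + 1) scale. Behind the sums were 122 and 163 reads in wild-type and 2133 and 2015 reads in Bmal1-/-. Scaled to library totals, this was 5.61 and 7.58 RPM against 91.4 and 87.5 RPM. Counting error alone gave exact Poisson 95% intervals of 107 to 153 and 148 to 202 for the wild-type values and of 1919.6 to 2091 and 1838 to 2007 for the Bmal1-/- values. The wild-type libraries differed 1.35-fold and the Bmal1-/- libraries 0.959-fold, replicate 2 over replicate 1. With Zscan4-ps2 in the sum the ratio was 13.2.

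Single copies gave the same picture. Zscan4c, the copy with most reads, showed 43.2 and 60.5 normalized units in wild-type and 730 and 709 in Bmal1-/-. Zscan4d, the copy whose reads can best be told from the others, had 39.0 and 36.1 in wild-type and 430 and 437 in Bmal1-/-, so its replicates were close in both groups. Zscan4f had 24.2 and 40.4 in wild-type and 429 and 401 in Bmal1-/-. In Zscan4c and Zscan4f the second wild-type library was the higher, while every Bmal1-/- library was above every wild-type library.

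Zscan4e reached 12.6 and 26.6 normalized units in wild-type, the least even pair of the family at 12 and 25 reads, and of 293 and 289 in Bmal1-/-. Zscan4b, the copy with fewest reads, had 9.48 and 9.56 in wild-type (9 reads in each library) and 121 and 86.8 in Bmal1-/-. Zscan4-ps2 had 19.0 and 20.2 in wild-type and 286 and 291 in Bmal1-/-. All 6 copies thus kept their groups apart, and even in Zscan4b the wild-type reads exceeded the floor of 3 reads, which corresponds to values of 2.82 to 3.19.

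**Figure D2:**
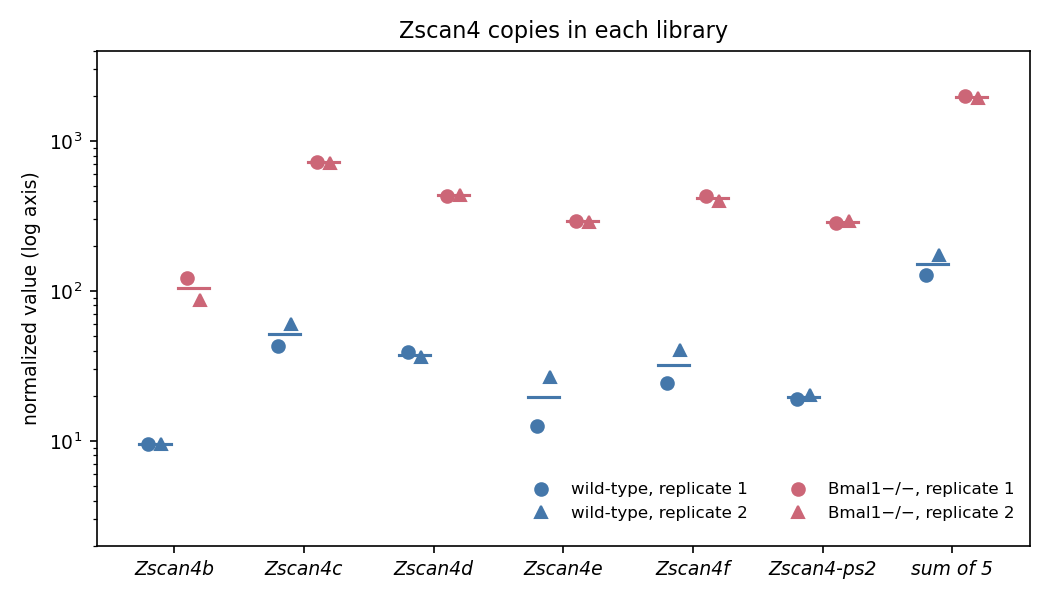
Normalized value (log axis) of each Zscan4 copy and of the sum of the 5 members in every library. Circles and triangles are replicates 1 and 2, blue for wild-type and red for Bmal1-/-, and bars are group means; the sum lies at 129 and 173 in wild-type and at 2004 and 1921 in Bmal1-/-.

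The ratio of group means was 14.8 for Zscan4e, 13.9 for Zscan4c, 12.8 for Zscan4f, 11.5 for Zscan4d and 10.9 for Zscan4b, and 14.7 for Zscan4-ps2. On the log2(value + 1) scale, with limma standard errors, the differences were 3.91 (SE 0.23), 3.79 (SE 0.13), 3.69 (SE 0.18), 3.50 (SE 0.13) and 3.30 (SE 0.26) in the same order of members. The copies were not tested against each other. Leaving out a library or changing the scaling, pseudocount, filter or tool kept all 5 differences positive, at 2.53 to 3.54 for Zscan4b, 3.22 to 3.56 for Zscan4d and 3.39 to 4.42 for Zscan4e. The other members lay at 3.55 to 4.03 (Zscan4c) and 3.33 to 4.04 (Zscan4f). All 5 members had a mean over the 4 libraries above the minimum of 10 set for the fit, Zscan4b only through Bmal1-/-, since its wild-type mean was 9.52. All 5 had both Bmal1-/- libraries above both wild-type libraries, as had 34.6% of the 14510 genes tested, and as these values chose the members nothing is read from that count. For the other genes described here a call means a limma fit with a Benjamini-Hochberg adjusted p under 0.05 and over 2-fold, which 7.21% of all genes tested met, 5.75% with a higher value in Bmal1-/-; 52.6% had an adjusted p under 0.05 at any size of change. In the ranking of all 14510 log2 differences from the highest, Zscan4e was at rank 30, Zscan4c at 47, Zscan4f at 62, Zscan4d at 85 and Zscan4b at 111, so 0.758% of genes lay above the lowest member.

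Values per kb of annotated exon take out the length of a copy but not the sharing of reads between copies, so this order is that of the deposited values and may not be that of the transcripts. In Bmal1-/- it was Zscan4c at 313, Zscan4d at 218, Zscan4f at 171, Zscan4e at 167 and Zscan4b at 59.6 per kb, with Zscan4-ps2 at 127. The length used for Zscan4f was 2430 bases of merged exons, whereas the transcript chosen for its coding sequence has 1829. In the other copies both lengths were equal. The place of Zscan4f in the order of both groups, and its overlaps, depend on this choice. The libraries of Zscan4f (177 and 165) and Zscan4e (168 and 166) overlapped, so these neighbours did not differ beyond their spread. In wild-type the means were 22.5 for Zscan4c, 18.8 for Zscan4d, 13.3 for Zscan4f, 11.2 for Zscan4e and 5.46 for Zscan4b per kb. There Zscan4c (18.8 and 26.3) overlapped Zscan4d (19.6 and 18.1), and Zscan4f (9.97 and 16.6) overlapped Zscan4e (7.24 and 15.2). Zscan4b was lowest and Zscan4c highest by the mean in both groups.

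Changes in the makeup of the family were not tested, and wild-type reads were few. Zscan4c held 33.6% and 34.97% of the family reads in wild-type and 36.4% and 36.9% in Bmal1-/-. Zscan4d held 30.3% (Wilson 95% interval 22.9% to 39.0%) and 20.9% (15.3% to 27.7%) in wild-type and 21.5% and 22.7% in Bmal1-/-. The first wild-type library stood apart for Zscan4d, and the second lay below both Bmal1-/- libraries. Mean shares in wild-type and Bmal1-/- were 21.1% and 21.1% for Zscan4f, 12.6% and 14.8% for Zscan4e, and 6.45% and 5.28% for Zscan4b. Among the 5 members, the interval of each wild-type library overlapped that of each Bmal1-/- library. Such overlap is no test, and with 122 and 163 wild-type reads it does not show that shares were unchanged. These intervals cover counting error only.

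**Figure D3:**
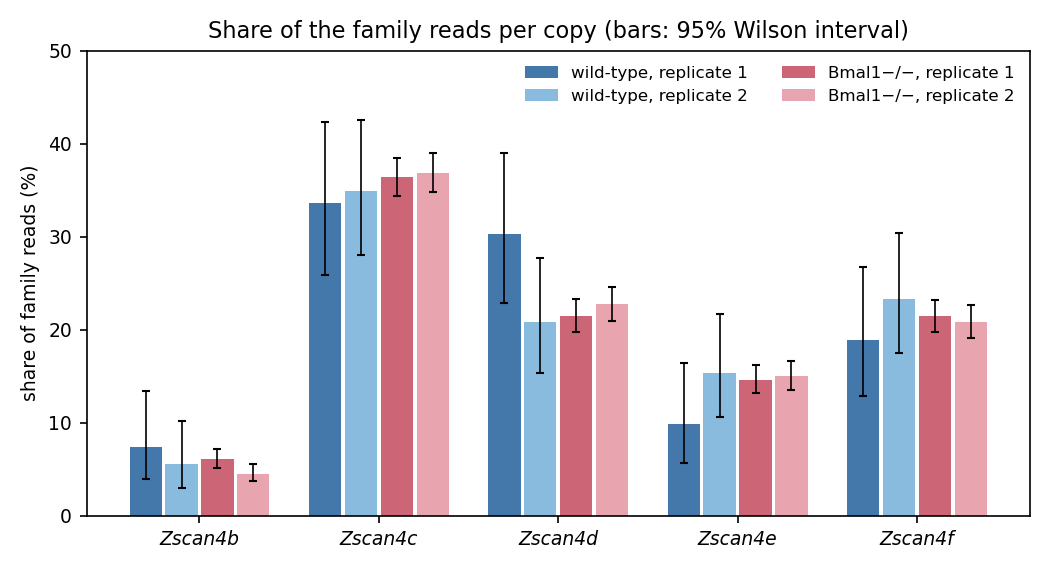
Share of the reads of the 5 Zscan4 members that each copy held (y axis, percent), for each of the 4 libraries, with Wilson 95% intervals for counting error. Zscan4c is the largest copy at 33.6% to 36.9%, and the wild-type intervals are wide because these libraries hold 122 and 163 family reads.

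Most genes around the cluster were silent in both groups. Of 26 other genes annotated within 500 kb of the copies, 22 had 0 reads in all 4 libraries. Zik1, a zinc finger gene to the left of the cluster, showed 451 and 425 normalized units in wild-type and 426 and 508 in Bmal1-/-. Gm6900 had 10.5 and 13.8 in wild-type and 12.2 and 10.5 in Bmal1-/-. For both genes the groups overlapped, with log2 fold changes of 0.09 (SE 0.09, limma adjusted p = 0.4) and -0.09 (SE 0.39, limma adjusted p = 0.87). These 2 were the neighbours that passed the filter; 0 of them were called by limma, edgeR or DESeq2, and 0 had an unadjusted p under 0.05. Zik1 and Gm6900 were picked for display after their values were seen, as the neighbours that could be tested.

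**Figure D4:**
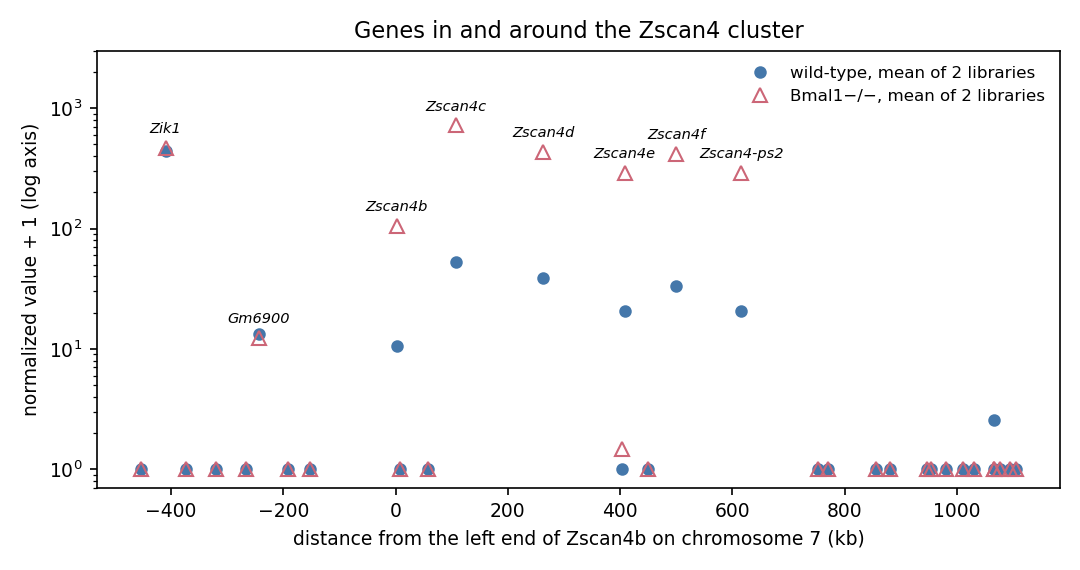
Mean normalized value + 1 (log axis) in wild-type (blue circles) and Bmal1-/- (red triangles) of the genes in and around the Zscan4 cluster, against the distance in kb from the left end of Zscan4b. The 6 Zscan4 copies are higher in Bmal1-/-, Zik1 and Gm6900 have overlapping groups, and 22 neighbours lie at 0 in all libraries.

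Other genes of the 2-cell-like state rose with the family. Of 39 genes of the 2-cell-state list found in the table, 34 passed the filter on low values, 32 were called higher and 0 lower, against 5.75% called higher among all 14510 genes tested. The list was written by hand with earlier results of these data known, so this count is a description. Of the 34, 14 had a wild-type mean under 10 and so passed the filter only through Bmal1-/-, which fixes their direction, and of the 20 with a wild-type mean of 10 or more 18 were called higher. The median log2 fold change of the 34 was 3.47, against -0.03 over all genes, and their range of 0.14 to 4.24 held the 5 Zscan4 values. Gm13109, a member of the Prame family, had the largest log2 fold change of the list, with 26.3 and 30.8 in wild-type and 581 and 531 in Bmal1-/- (log2 fold change 4.24, SE 0.14, limma adjusted p = 1.2e-15). Sp110, a nuclear body protein gene, had 12.6 and 13.8 in wild-type and 236 and 218 in Bmal1-/- (4.0, SE 0.19, limma adjusted p = 6.8e-13). Zfp352, a zinc finger gene of the early embryo, had 27.4 and 19.1 in wild-type and 279 and 247 in Bmal1-/- (3.46, SE 0.18, limma adjusted p = 3e-12). In all 3 genes the groups were far apart. Further called genes with the largest changes were Gm4027 (3.97), Gm428 (3.95), Gm11487 (3.92), Ubtfl1 (3.84) and Gm2056 (3.82). Of these, Gm4027, Gm428 and Gm11487 had wild-type means of 5.83, 6.34 and 3.71, and like Trim43b (1.58) they passed the filter only through Bmal1-/-. Trim43b, of a ubiquitin ligase family of the early embryo, rested on 2 and 1 wild-type reads against 33 and 44 reads in Bmal1-/-, a ratio of 23.0 with a counting interval of 7.59 to 114.

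Of the multicopy families, 3 of 3 Usp17l deubiquitinase genes found in the table were called higher, and 4 of 5 Tdpoz genes, the other, Tdpoz5, having 0 reads in all libraries. Over all genes tested 5.75% were called higher. The 4 Tdpoz genes had wild-type means of 3.69 to 8.47, and the Usp17l gene Dub2a, named after its values were seen, one of 9.52. These genes passed the filter only through Bmal1-/-, which fixes their direction, so their calls are a description. Usp17la, listed as Dub1, a deubiquitinase gene, showed 28.4 and 44.6 normalized units in wild-type and 394 and 421 in Bmal1-/-, and Tdpoz4, which encodes a TRAF and POZ domain protein, had 6.32 and 1.06 in wild-type and 31.9 and 36.2 in Bmal1-/-. Their log2 fold changes were 3.48 (SE 0.17, limma adjusted p = 7e-13) and 3.17 (SE 0.50). Tdpoz4 rested on 6 and 1 wild-type reads and its direction was fixed by the filter, so no p-value is given for it. Gm5662, an Eif1a-like gene, had 162 and 208 in wild-type and 2049.8 and 2152 in Bmal1-/-, close to the level of the summed Zscan4 family, and Gm8300 had 35.8 and 44.6 in wild-type and 401 and 442 in Bmal1-/-. Like the Zscan4 copies, many of these genes have near-identical copies, so single values are uncertain. The second wild-type library, the higher for the Zscan4 sum, was also the higher in 23 of the 34 list genes tested, against 7111 of all 14510. The list genes tested but not called were Calcoco2 (0.33, limma adjusted p = 6.6e-07, under 2-fold) and Naa11 (0.14, limma adjusted p = 0.17), named here after their values were seen.

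Dux, the homeodomain factor that activates Zscan4 and other genes of the 2-cell stage, had too low a mean to be tested. The 2 and 1 wild-type reads (2.11 and 1.06 normalized units) stood against 13 and 12 reads in Bmal1-/- (12.2 and 11.4), a ratio of 7.46 with a counting interval of 2.28 to 38.6. Gm4981, listed as a second Dux gene, had 0 reads in both wild-type libraries and 3 and 4 reads in Bmal1-/-, so no ratio is given. Without the filter, over 23598 genes, limma called both on the log2(value + 1) scale. The differences were 2.34 for Dux (SE 0.36, limma adjusted p = 0.02) and 2.10 for Gm4981 (SE 0.33, limma adjusted p = 0.021). With 0 wild-type reads the Gm4981 difference depends on the added 1, and both calls rest on few reads.

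Other activators of Zscan4 moved less. Of the 6 tested, 4 had a higher value at a limma adjusted p under 0.05, as had 24.0% of all genes, and 0 passed 2-fold as well, also with edgeR and DESeq2; 4 had an unadjusted p under 0.05, and the median log2 fold change was 0.36. Dppa2, a chromatin factor that acts upstream of Dux, had 2581 and 2412 in wild-type and 4503 and 4618 in Bmal1-/- (0.87, SE 0.05, limma adjusted p = 2.3e-12). Its partner Dppa4 had 2284 and 2383 in wild-type and 2449 and 2449.8 in Bmal1-/- (0.07, SE 0.05, limma adjusted p = 0.21). The groups did not overlap for either gene. The other 3 that passed, the last pair named after their values were seen, were Tbx3, a T-box factor (0.36), Whsc2, which encodes the elongation factor subunit Nelfa (0.88), and Atr, the DNA replication stress kinase (0.36). All 4 kept their sign and their adjusted p under 0.05 with 4 scalings of the libraries.

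Genes known to restrain the 2-cell-like state changed in both directions. Of 33 repressor genes tested, 13 were higher and 9 lower at a limma adjusted p under 0.05, against 24.0% and 28.6% of all genes, and 13 and 6 with each of 4 scalings of the libraries. Their median log2 fold change was -0.01. The gene called past 2-fold was Lin28a, an RNA-binding protein of pluripotent cells, with 1693 and 1560.5 in wild-type and 563 and 535 in Bmal1-/- (-1.57, SE 0.06, limma adjusted p = 2.7e-14), where 1.45% of all genes were called lower. Rif1, a chromatin and replication timing factor, had 10293 and 10015 in wild-type and 15378 and 15729 in Bmal1-/- (0.62, SE 0.04, limma adjusted p = 3.3e-11). The remaining defining repressors had small log2 fold changes. These were 0.15 for the histone demethylase gene Kdm1a, 0.13 for Uhrf1, -0.09 for the DNA methyltransferase gene Dnmt1, -0.17 for the chromatin assembly factor gene Chaf1a and -0.05 for the co-repressor gene Trim28 (limma adjusted p = 0.31), whose sign turned with equal library totals and with quantile normalization.

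Telomere and recombination genes, the group linked to Zscan4 function, were more often lower than higher. Of 32 tested, 17 were lower and 5 higher at a limma adjusted p under 0.05, against 28.6% and 24.0% of all genes, with a median of -0.15. With limma 0 passed 2-fold as well and 24 had an unadjusted p under 0.05; edgeR and DESeq2 each called 1, Smc1b. The counts under all 4 scalings were 15 lower and 5 higher. Terf2, a shelterin gene, had 1525 and 1517 in wild-type and 1255 and 1259 in Bmal1-/- (-0.28, SE 0.05, limma adjusted p = 0.00013). The groups overlapped for Terf1, another shelterin gene (0.01, limma adjusted p = 0.8). Tert, the telomerase catalytic subunit gene, had 473 and 450 in wild-type and 521 and 510 in Bmal1-/- (0.16, SE 0.07, limma adjusted p = 0.075), groups that did not overlap. The meiotic recombinase gene Dmc1 had a log2 fold change of -0.08 (limma adjusted p = 0.47), and Spo11, which makes meiotic breaks, was at 1.05 and 2.12 in wild-type and 0 and 1.91 in Bmal1-/-, under the filter. The 5 higher genes, named after their values were seen, were the meiotic cohesin gene Smc1b (0.97), the repair genes Brca2 (0.70), Rad50 (0.28) and Blm (0.18), and the chromatin remodeler gene Atrx (0.39). Among the 17 lower genes the largest decreases were in Obfc1 (-0.55), Mnd1 (-0.52), Gar1 (-0.50) and Nbn (-0.49), also named after their values were seen.

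Other genes with a SCAN domain had log2 fold changes of -0.40 to 1.00, below those of every Zscan4 copy. Of 36 tested, 11 were higher and 6 lower at a limma adjusted p under 0.05, against 24.0% and 28.6% of all genes, and 10 and 5 with each of 4 scalings. Their median was 0.06. The called gene was Zkscan16, with 28.4 and 28.7 in wild-type and 59.2 and 57.2 in Bmal1-/- (1.00, SE 0.22, limma adjusted p = 0.0007), close to the threshold of 2-fold. Zscan10, a SCAN factor of pluripotent cells, had 3652 and 3529 in wild-type and 2862 and 2791 in Bmal1-/- (-0.34, SE 0.04, limma adjusted p = 1.5e-06). Peg3, an imprinted gene, was lower by a log2 fold change of -0.20 (SE 0.05, limma adjusted p = 0.0012).

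**Figure D5:**
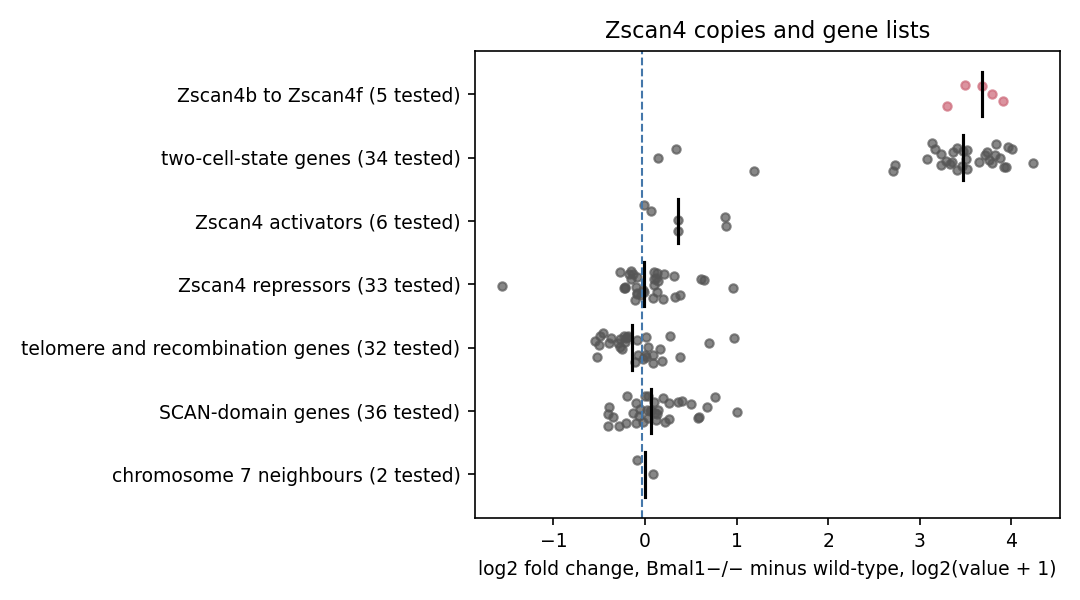
Log2 fold change of Bmal1-/- over wild-type on the log2(value + 1) scale (x axis) for each gene tested, by list (y axis). Points are genes, black bars list medians and the dashed line the median of all 14510 genes (-0.03); the 2-cell-state list (median 3.47) spans the range of the 5 Zscan4 copies, and the medians of the lists below it lie between -0.15 and 0.36.

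The 10 genes nearest in pattern to the summed family, by the distance between log2(value + 1) profiles over the 4 libraries centred on their own means, were Prr18, Gm6804, Gm11544, Gm12183, Gm2075, Tmem92-ps, Gm11543, Gm5301, Gm8994 and Glt25d2. The nearest, Prr18, lay at a distance of 0.092, with 28.4 and 40.4 in wild-type and 489 and 473 in Bmal1-/-. Glt25d2, the last of the 10, lay at 0.181, with 29.5 and 34.0 in wild-type and 410 and 422 in Bmal1-/-. Of the 10, 1 (Gm8994) was in the 2-cell-state list. That list was written by hand and some entries had no row, such as Tmem92. A gene outside it is therefore not shown to be unlinked to the 2-cell state. With 4 libraries in 2 groups such likeness is easily met: 820 of 14504 genes had a Pearson correlation above 0.99 with the sum, and 2 of the 10 were among the 10 nearest by correlation.

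The libraries held 21737170 and 21504265 reads in wild-type and 23329034 and 23021702 reads in Bmal1-/-. Arntl, the targeted gene, had 678 and 733 in wild-type and 556 and 590 in Bmal1-/- (-0.30, SE 0.07, limma adjusted p = 0.0011), so that the libraries labelled Bmal1-/- still held 0.812 of its wild-type mean. For its Bmal1-/- cells the paper reports no Bmal1 transcript by RT-qPCR and no detectable protein by Western blot. It describes both indels as frame shifts with early stop codons. Why the sequenced RNA remained was not tested. All 9 mESC markers were detected and their summed value was 137512 to 143268 in wild-type and 136228 to 137511 in Bmal1-/-. Of the 9, 3 were higher and 6 lower at a limma adjusted p under 0.05, against 24.0% and 28.6% of all genes tested. Their log2 fold changes ran from -0.89 to 0.25, and 0 were called. The summed value of 7 fibroblast markers was 3533 to 3696 in wild-type and 1202 to 1225 in Bmal1-/-, nearly all of it Vim, with Lum and Dcn at 0 in every library. That of 5 neural markers was 3873 to 4129.7 in wild-type and 2286 to 2469.7 in Bmal1-/-. Of the markers tested, 2 of 4 neural and 1 of 3 fibroblast genes were called lower, against 1.45% of all genes tested. Primitive endoderm markers (9 genes) summed to 615 to 645 in wild-type and 729 to 765 in Bmal1-/-, most of it Lama1, while Sox7 was called lower (-2.41, limma adjusted p = 6e-06) and Sox17 higher (1.27, limma adjusted p = 0.002). Trophoblast markers (7 genes) summed to 642 to 645 in wild-type and 542 to 556 in Bmal1-/-. The part of these differences in the Zscan4 values was not tested.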

How the data were processed

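mRNA was sequenced by the authors from 2 wild-type and 2 Bmal1-/- JM8 mESC libraries (stranded poly(A) kit, paired reads), and per the labels bcl2fastq 2.18.0.12, cutadapt 1.9.1 and STAR 2.5.2b were used with mm9. The counter and its handling of reads that fit several genes are not given in the sources used here. The deposited values are a signal: reads per gene scaled by the authors with TMM. Whole reads were recovered for 100% of values (tolerance 0.01 read), with 1 read worth 0.939 to 1.06; library totals were 21504265 to 23329034 reads. All 37310 identifiers matched the GENCODE annotation of mm9, which gave symbols, positions and sequences; copies were aligned with mafft 7.526.

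The 14510 genes whose mean over the libraries reached 10 were tested with limma 3.58.1 (R 4.3.3, intensity trend) on log2(value + 1), which understates changes of low genes, 2 libraries against 2 without covariates; a call needed a Benjamini-Hochberg adjusted p-value under 0.05 and over 2-fold. Members and lists were chosen with earlier results of these data known, and the lists were written by hand. List entries without a row, 12 of 49 in the 2-cell-state list, are not analysed here. Genes named were the Zscan4 copies, up to 8 called genes of a list with the largest changes, genes marked as defining a list, the 10 nearest in pattern, and Arntl; others are said to be chosen after their values were seen. Intervals are Wilson (shares) or exact (reads) at 95% and cover counting error only. The fits were also run on simulated counts. Alternatives were other filters, pseudocounts and scalings, no trend, a replicate block, leaving out each library, edgeR 4.0.16 and DESeq2 1.42.0 on whole reads, and no fold threshold. Replicate numbers were checked for pairing by the correlation of replicate differences, -0.02 over 14510 genes.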

Additional observations from a re-analysis of the deposited data

How the results depend on the processing

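The summed Zscan4 value kept its direction under every alternative run, at log2 differences of 3.49 to 3.92 when a library was left out. The median of the single copies moved to 3.35 with a pseudocount of 10 and to 3.41 to 4.03 without a library. The mean share of Zscan4c differed by 2.36 points, within the counting intervals, and by 3.39 points with quantile normalization. Shares of other copies changed sign: without wild-type replicate 1, Zscan4d went from -3.49 to 1.24 points, Zscan4e from 2.25 to -0.51 and Zscan4f from 0.05 to -2.18. Over the libraries left out they spanned -8.23 to 1.24, -0.51 to 5.00 and -2.18 to 2.28 points; Zscan4f was at -0.24 without Bmal1-/- replicate 1 and at -0.11 with quantile normalization.

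Differentially expressed genes numbered 1046, against 318 with a mean of at least 100 (fewer genes tested), 7639 with no fold threshold, 956 to 1115 without a library, 1091 with edgeR and 862 with DESeq2. With quantile normalization 608 were higher and 377 lower, 61.7% higher against 79.8%. The 2-cell-state count of 32 of 34 tested went to 13 of 15 tested with a mean of at least 100 and to 31 to 32 without a library. Activators went from 0 to 2 (Dux and Gm4981) with no filter or with a mean of at least 1. Repressors went from 1 to 2 with equal library totals (Tet3 added). Telomere and recombination genes went from 0 to 1 (Smc1b) with equal library totals, edgeR or DESeq2, and to 0 to 1 without a library, the call being made when replicate 1 of either group was left out. The SCAN-domain call (Zkscan16) was lost, 0 genes, with a mean of at least 100, a pseudocount of 10 or quantile normalization, and stood at 0 to 1 without a library, lost when replicate 1 of either group was left out. With no fold threshold these 4 lists had 4, 22, 22 and 17 calls. Trim28 went to 0.013 with equal library totals and 0.091 with quantile normalization (limma adjusted p = 0.041), Terf1 to -0.018 to 0.047 without a library (negative when wild-type replicate 1 or Bmal1-/- replicate 2 was left out), and Dmc1 to -0.15 to 0.00031 (positive without wild-type replicate 2). Where no reason is given, the cause was not tested.

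The groups share replicate numbers, but the samples share only a number (correlation -0.02); with it as a block, limma called 1056 genes, 1046 of them shared with the fit without it, and no list count changed by over 1.5 times. Depth limits the single copies: wild-type held 9 to 57 reads a copy.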
